A study of Mus musculus with 6 samples.

Results

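The granzymes and perforin are the killing proteins of cytotoxic granules, and their transcripts were followed across mouse Th17 cells with and without a Sirt2 knockout. Of 10 gene names listed (Gzma to Gzmg, Gzmk, Gzmm and Prf1), 7 had a row in the gene table and were used, out of 24182 genes in all. Gzmd, Gzme and Gzmg were not analysed here. The family was singled out with the values of this same comparison known, so the differences between KO and WT given for its members are descriptions without a test.

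Granzymes are serine proteases that cytotoxic lymphocytes store in granules bound to the proteoglycan serglycin. On contact with a target cell the granules are released, perforin forms pores, and the granzymes enter and cleave proteins that drive cell death. Natural killer (NK) cells and CD8 T cells are their main source, while CD4 helper T cells such as Th17 cells, defined by production of interleukin 17, usually hold little of them.

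The 6 libraries were from mouse Th17 cells of 2 genotypes, 3 labelled Sirt2 KO, made with CRISPR/Cas9, and 3 labelled Sirt2 WT as controls. Both groups were stimulated for 72 hours with antibodies to CD3 at 0.5 μg/mL and to CD28 at 1 μg/mL, although the treatment label reads untreated for each library. Strain, age, guide and whether the knockout cells were a clone or a pool are not given in the sources used here. Nor do these sources say that the replicates were separate cultures or mice. A p-value here therefore reflects only how far these libraries vary, and that variation may be technical.

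Values are FPKM, which counts fragments relative to transcript length and library size, and no counts are given, so read depth is unknown. Each library summed to between 303772 and 321734 FPKM. Sirt2 itself was at 11.2, 13.5 and 10.9 FPKM in the KO libraries, by replicate number, against 20.7, 19.9 and 21.9 FPKM in the WT libraries, lower in each KO library. KO replicate 3 stood apart: its log2(FPKM + 1) values correlated across genes, which are no independent replicates, at 0.981 and 0.979 with the other two KO libraries and at 0.990 with each WT library. Of the T cell and Th17 markers 12 of 12 were present, summing to between 495 and 673 FPKM in KO against between 648 and 680 FPKM in WT. Of the 12, 1 (Maf) was lower in each KO than in each WT library and 0 were higher. Of all genes in the table, 5.26 percent were lower in this way and 3.79 percent higher. Member values that rest on KO replicate 3 are given with and without it.

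The members lie in 4 places, and the sequences of the chromosome 14 genes are shown first because these genes are close relatives. Gzmb (ENSMUSG00000015437) spans 56258838 to 56262260 on chromosome 14, minus strand, with 5 exons, in GRCm38. Gzmc (ENSMUSG00000079186) lies at 56231441 to 56234656 and Gzmf (ENSMUSG00000015441) at 56205263 to 56211417 on the same strand. Gzma (ENSMUSG00000023132, 113093825 to 113100981) and Gzmk (ENSMUSG00000042385, 113171608 to 113225908) are both on the minus strand of chromosome 13. Prf1 (ENSMUSG00000037202, 61297833 to 61304680) and Gzmm (ENSMUSG00000054206, 79689020 to 79695261) are on the plus strand of chromosome 10, far from each other.

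The coding sequences, taken from the GENCODE M21 transcripts without the stop codon, show how alike the members are. Gzmb and Gzmc were identical at 75.6 percent of alignment positions, gaps counted as differences, and Gzmb and Gzmf at 67.3 percent. Gzmc and Gzmf shared 72.8 percent, whereas Gzmb shared 54.7 percent with Gzma and 33.0 percent with Prf1, which is no protease. The coding sequence of Prf1 is longer, at 1662 bases against 741 for Gzmb, which by itself lowers that share. The longest run of identical bases between Gzmb and Gzmc was 49 bases long, and it is printed here in capitals with 15 bases on either side, because a read inside it could belong to either gene. It covers part of coding bases 337 to 415 of Gzmb and 340 to 418 of Gzmc:
Gzmb: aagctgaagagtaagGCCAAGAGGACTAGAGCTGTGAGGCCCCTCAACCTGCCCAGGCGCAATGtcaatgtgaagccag
Gzmc: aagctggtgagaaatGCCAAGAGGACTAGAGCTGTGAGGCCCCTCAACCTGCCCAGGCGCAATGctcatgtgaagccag

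Windows of a read's possible length were then compared over all annotated transcripts. No window of 50 bases of the Gzmb transcript (0 of 1387 windows) occurred in a transcript of another GENCODE gene. For Gzmc 35 of 845 such windows did, shared with Gzmd, Gzme or Gzmg, and 0 of 820 windows of 75 bases. For Gzmf 169 of 870 windows of 50 bases and 80 of 845 windows of 75 bases were shared, the longer ones with Gm4022 alone. Gzma, Gzmk, Gzmm and Prf1 shared 0 windows of either length. Read length and the treatment of reads that fit several genes are not given in the sources used here, so the values of Gzmc and Gzmf are uncertain in that respect.

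The 250 bases before the RefSeq start site (GRCm38.p6, minus strand) are printed for the chromosome 14 members, since Gzmb and Gzmc were the highest members in KO and Gzmf was near 0. Capitals mark matches to motifs searched on both strands. The motifs were TGANTCA for AP-1, TGACGTCA for the cAMP response element (CRE), TGTGGT for RUNX factors, GGTGTGA for T-box factors, TTCNNNGAA for STAT factors, GGAAA for NFAT and the NF-kB motif, and no 2 matches overlapped. The windows are chr14:56262335-56262584 for Gzmb, chr14:56234658-56234907 for Gzmc and chr14:56211408-56211657 for Gzmf:
Gzmb: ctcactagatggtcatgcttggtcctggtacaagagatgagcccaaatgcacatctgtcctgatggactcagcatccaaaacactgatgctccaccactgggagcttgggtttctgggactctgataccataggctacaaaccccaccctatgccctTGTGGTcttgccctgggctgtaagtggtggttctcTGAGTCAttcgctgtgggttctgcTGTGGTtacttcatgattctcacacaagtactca
Gzmc: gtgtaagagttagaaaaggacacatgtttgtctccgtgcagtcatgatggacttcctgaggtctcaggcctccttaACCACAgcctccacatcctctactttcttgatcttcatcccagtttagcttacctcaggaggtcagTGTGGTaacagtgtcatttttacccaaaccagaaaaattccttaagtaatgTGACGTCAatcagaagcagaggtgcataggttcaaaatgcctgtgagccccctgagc
Gzmf: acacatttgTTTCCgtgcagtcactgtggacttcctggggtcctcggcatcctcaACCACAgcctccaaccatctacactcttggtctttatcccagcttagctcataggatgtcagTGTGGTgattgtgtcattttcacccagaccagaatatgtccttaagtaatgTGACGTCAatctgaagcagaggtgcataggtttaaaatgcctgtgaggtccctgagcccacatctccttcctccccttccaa

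Gzmb held 1 AP-1 match, at bases -58 to -52 before the start, and 2 RUNX matches, at -93 to -88 and -34 to -29. Gzmc held a CRE match at -57 to -50 and 2 RUNX matches, at -174 to -169 and -108 to -103. Gzmf had the same kinds of match in the same order (CRE at -82 to -75, RUNX at -195 to -190 and -133 to -128) and 1 NFAT match at -241 to -237. Over 32851 RefSeq windows of this length, 6.75 percent held the AP-1 letters, 1.55 percent the CRE letters, 14 percent the RUNX letters and 55.6 percent the NFAT letters. The windows of Gzmc and Gzmf were 70.2 percent identical and those of Gzmb and Gzmc 47.5 percent, gaps again counted as differences. The RefSeq start of Gzmb lies 74 bases upstream of the start of the transcript that was measured, that of Gzmc 1 base upstream and that of Gzmf 10 bases inside it.

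Outside chromosome 14 the same search gave other matches. Gzma held 1 RUNX match, at -50 to -45, and 2 NFAT matches. Prf1 held a single RUNX match at -130 to -125 and Gzmk a single T-box match at -75 to -69, a kind found in 3.33 percent of windows. Gzmm held a STAT match at -86 to -78, found in 7.02 percent of windows, with 1 RUNX and 2 NFAT matches, and its second RefSeq start held 1 T-box match. NF-kB letters were in no member window and in 0.356 percent of all windows. A match describes letters only.

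**Figure D1:**
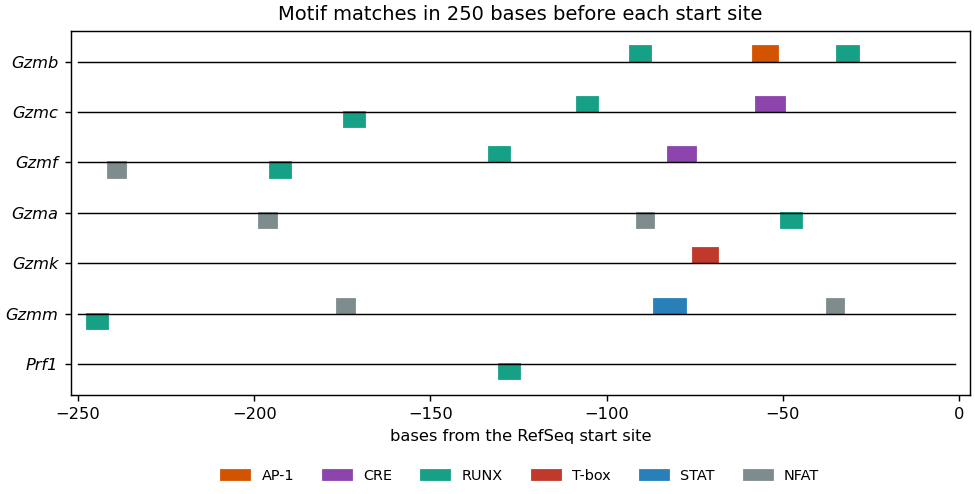
Positions of motif matches in the 250 bases before the first RefSeq start site of each member (x axis, bases from the start; boxes above the line read along the gene, boxes below it on the other strand). Gzmc and Gzmf share the order RUNX, RUNX, CRE, while Gzmb has an AP-1 match between a pair of RUNX matches.

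Gzmb, the granzyme that cleaves after aspartate, was the highest member in both groups. It was at 19.2, 18.1 and 11.6 FPKM in the KO libraries, by replicate number, against 2.66, 2.76 and 2.97 FPKM in the WT libraries. Every KO library was above every WT library, the lowest KO value being 3.9 times the highest WT value, and KO replicate 3 was the lowest of the KO libraries. The means were 16.3 ± 4.13 FPKM (SD, n = 3) in KO and 2.80 ± 0.156 FPKM in WT, a ratio of 5.83, or 6.68 without KO replicate 3. On the log2(FPKM + 1) scale the difference was 2.16. The WT libraries were close together, and the spread lay in KO. In bulk RNA, more cells that express a gene and more RNA per cell cannot be told apart.

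Gzmc, a rodent granzyme next to Gzmb, was at 2.10, 2.06 and 1.45 FPKM in KO, against 0.379, 0.145 and 0.0958 FPKM in WT. The groups did not overlap, with the lowest KO value 3.84 times the highest WT value, and KO replicate 3 was again the lowest KO library. The means were 1.87 ± 0.361 FPKM in KO against 0.207 ± 0.151 FPKM in WT, a ratio of 9.05, or 10.1 without KO replicate 3. The difference on the log2(FPKM + 1) scale was 1.25, smaller than that of Gzmb because adding 1 understates the change of low genes. Gzmb was 9.16, 8.81 and 7.96 times Gzmc in KO replicates 1 to 3 and 7.02, 19.0 and 31.0 times Gzmc in WT replicates 1 to 3, a ratio that rests on WT values of Gzmc far under 1 FPKM.

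Gzma, a protease that cleaves after basic residues, was at 0.424, 0.326 and 0.760 FPKM in KO. It was listed at 0 in WT replicates 1 and 2 and was at 0.252 FPKM in WT replicate 3. All KO libraries were above all WT libraries, but the lowest KO value was 1.29 times the highest WT value and no library reached 1 FPKM. Here KO replicate 3 was the highest library, the reverse of its place for Gzmb and Gzmc. Without it the KO mean was 0.375 FPKM in place of 0.503 FPKM.

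Prf1, the pore-forming perforin, was at 0.494, 0.117 and 0.169 FPKM in KO, against 0.205, 0.251 and 0.146 FPKM in WT. KO replicate 1 was the highest library and KO replicate 2 the lowest, so the WT range lay inside the KO range. Gzmm, which cleaves after methionine or leucine, was at 0.489, 0.131 and 0.239 FPKM in KO, against 0.0972, 0.226 and 0.302 FPKM in WT. KO replicate 1 was again the highest library, WT replicate 1 was the lowest, and the groups overlapped. The mean of Prf1 was 0.260 ± 0.204 FPKM in KO against 0.2005 ± 0.0525 FPKM in WT. For Gzmm it was 0.286 ± 0.184 and 0.208 ± 0.104 FPKM. For both the difference of the means was smaller than the SD of the KO libraries.

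Gzmk, a protease related to Gzma, was at 0.161 FPKM in KO replicate 2 and listed at 0 in the other 5 libraries. Gzmf, a rodent granzyme of the chromosome 14 cluster, was at 0.0409 FPKM in WT replicate 2 and listed at 0 in the other 5 libraries. Each value above 0 rests on a single library.

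**Figure D2:**
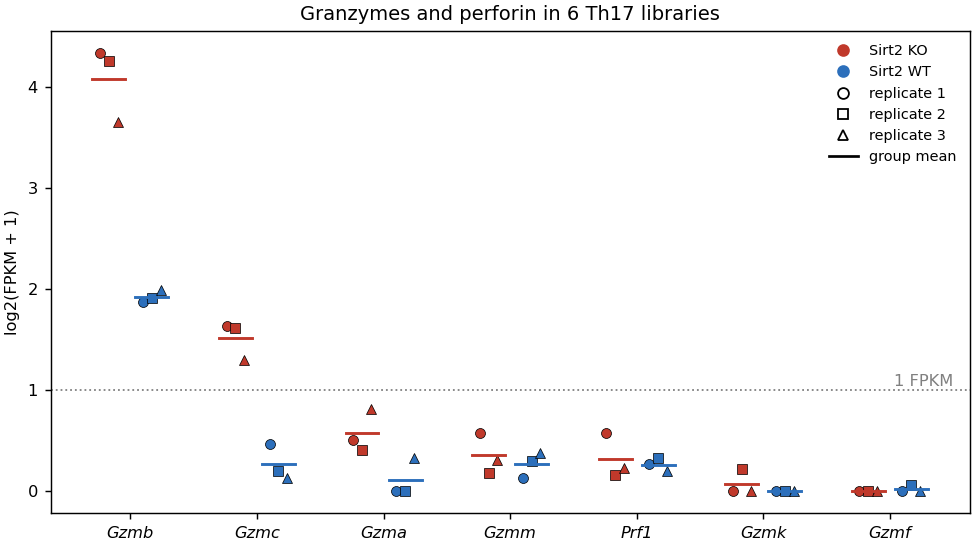
FPKM of each member on the log2(FPKM + 1) scale (y axis) in the 3 Sirt2 KO and 3 Sirt2 WT libraries, with the group mean as a bar and the replicate as the symbol. Gzmb lies above 1 FPKM in each library and Gzmc in KO, KO and WT do not overlap for Gzmb, Gzmc and Gzma, and the other 4 members overlap.

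Because FPKM is per length, the levels of members can be ordered. In KO the order was Gzmb, Gzmc, Gzma, Gzmm, Prf1, Gzmk, Gzmf. Gzmb was apart from Gzmc and Gzmc from Gzma, while from Gzma downward each member overlapped with the next. In WT the order was Gzmb, Gzmm, Gzmc, Prf1, Gzma, Gzmf, Gzmk, and from Gzmm downward each member overlapped with the next. Gzmc thus stood apart from perforin and from Gzmm in KO, and in WT it did not.

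The summed level of the 7 members was 22.7, 20.9 and 14.2 FPKM in KO against 3.34, 3.43 and 3.76 FPKM in WT. Gzmb made up 81.5 to 86.7 percent of the sum in KO and 78.9 to 80.6 percent in WT. The 5 members other than Gzmb and Gzmc summed to 1.41, 0.735 and 1.17 FPKM in KO against 0.302, 0.518 and 0.700 FPKM in WT. That small sum was higher in each KO library too, with KO replicate 2 only just above WT replicate 3.

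In all, 3 of 7 members (Gzma, Gzmb and Gzmc) had every KO library above every WT library and 0 had the reverse. With KO replicates 1 and 2 alone these 3 members could not drop out, and no other member was apart in either direction. In that comparison 12.3 percent of all genes had both KO libraries above every WT library and 19.7 percent below. With all libraries, 3.79 percent of all genes had every KO library above every WT library and 5.26 percent below. Only Gzmb and Gzmc passed the filter of 1 FPKM or more in at least 3 libraries, Gzmc through the 3 KO libraries alone, at 1.45 to 2.10 FPKM. The highest value of a member that did not pass was 0.760 FPKM, of Gzma in KO replicate 3. Across the 10873 tested genes the limma fit called 12, or 0.11 percent, 10 of them higher in KO (0.092 percent) and 2 lower (0.0184 percent), at a Benjamini-Hochberg adjusted p under 0.05. Gzmb and Gzmc were among them, which adds nothing since this contrast chose the family. In the authors' deposited table a total of 71 genes, 0.294 percent, carry the mark for significance, Gzmb and Gzmc included.

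These calls depended on single libraries and on the filter. The direction of Gzmb, Gzmc and Gzma could not change on leaving out a library, since every KO library was above every WT library. The Gzmb call was lost without KO replicate 1, WT replicate 2 or WT replicate 3, and without the filter, where 8 genes of the table were called (0.0331 percent, each higher in KO) and 5.27 percent had an unadjusted p under 0.05. Its difference stayed between 2.03 and 2.54 over 12 alternatives. Of these the replicate block cannot move it, and the deposited log2 fold repeats the log2 ratio of mean FPKM. The Gzmc call was lost without any one WT library, without the filter, at a pseudocount of 0.1, at adjusted p under 0.01 and with libraries scaled to one sum, and Gzmc was not tested without any one KO library. Its difference ran from 1.18 to 3.18, the highest being the log2 ratio of mean FPKM with no pseudocount. Gzma stayed above 0 in 12 of 12 alternatives, whereas Prf1 and Gzmm each turned below 0 in 1 of 12, without KO replicate 1.

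The transcript table showed which annotated models carry these values. The 7 genes had 10 transcripts, all protein coding. Gzmb and Gzmc each had 1, equal to the gene value. In the fit over 19184 transcripts 8 were called (0.0417 percent), 3 higher (0.0156 percent) and 5 lower (0.0261 percent) in KO, and 0 of the 2 tested member transcripts were among them by limma, though both had an unadjusted p under 0.05, as had 5.57 percent of all tested transcripts. The Gzmb transcript was called without KO replicate 3.

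Gzma had 2 transcripts, and no library had both above 0. The 6-exon model ENSMUST00000224282 was at 0.428 and 0.329 FPKM in KO replicates 1 and 2 and at 0.255 FPKM in WT replicate 3, whereas the 5-exon model ENSMUST00000023897 was at 0.871 FPKM in KO replicate 3 alone. How many fragments lie behind these values cannot be told without counts. The 3-exon perforin model ENSMUST00000219375 was at 0.515, 0.122 and 0.0893 FPKM in KO against 0.161, 0.238 and 0.0908 FPKM in WT. The 2-exon model ENSMUST00000035419 was at 0 in KO replicates 1 and 2, at 0.110 FPKM in KO replicate 3, where it was the higher of the pair, and at 0.0667, 0.0298 and 0.0775 FPKM in WT. The single Gzmm model ENSMUST00000020549 was at 0.560, 0.150 and 0.273 FPKM in KO against 0.111, 0.258 and 0.345 FPKM in WT, each a little above the gene value.

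The nearest expressed neighbours of the chromosome 14 members did not pass the test. The cluster also holds mast cell proteases and cathepsin G. Mcpt8, a basophil and mast cell protease gene, was at 0.0424, 0.249 and 0.121 FPKM in KO against listed at 0 in 3 of 3 WT libraries. Ctsg was at 0.102 FPKM in KO replicate 1 and Mcpt1 at 0.0854 FPKM in KO replicate 2, both otherwise listed at 0. The nearest genes that averaged 1 FPKM or more were Sdr39u1, 305 kb away on one side, and Cenpj, 264.5 kb away on the other. Sdr39u1 was at 6.45, 8.19 and 7.69 FPKM in KO against 7.43, 6.84 and 8.3 FPKM in WT (log2 difference -0.02, limma adjusted p = 0.981). Cenpj, a centriole gene, was at 3.69, 3.14 and 4.15 FPKM in KO against 4.07, 3.88 and 4.04 FPKM in WT (log2 difference -0.11, limma adjusted p = 0.876). Their 95% intervals were -0.26 to 0.23 and -0.34 to 0.13.

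**Figure D3:**
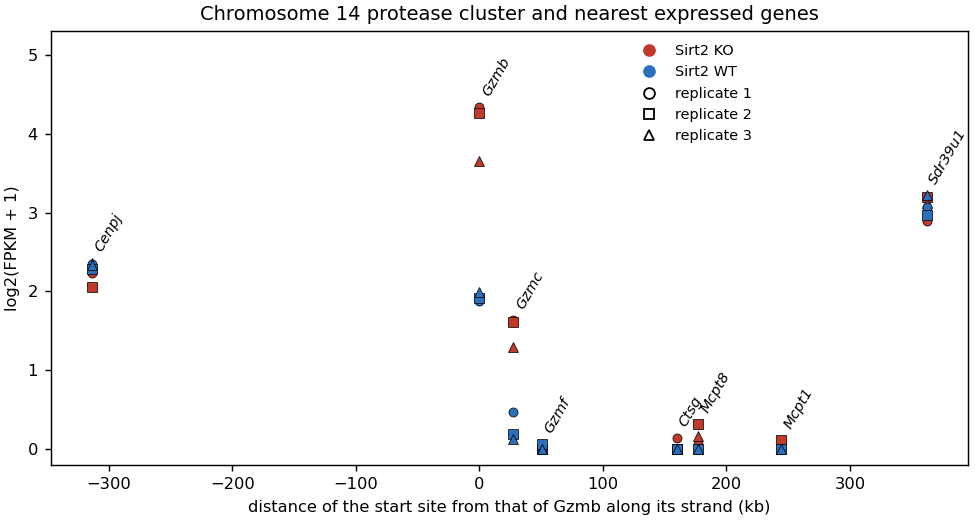
log2(FPKM + 1) of the chromosome 14 protease genes and the nearest expressed gene on each side (y axis) against the distance of their start sites from that of Gzmb along its strand (x axis, kb), one point per library. KO and WT lie apart at Gzmb and Gzmc and overlap at Sdr39u1 and Cenpj.

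Dhx29 and Snx18 flank Gzma and Gzmk, Sgpl1 and Eif4ebp2 flank Prf1, and Cdc34 and Bsg flank Gzmm. Of these 6 genes 0 passed (limma adjusted p from 0.844 to 0.917), and Eif4ebp2, a translation repressor gene, had every KO library above every WT library, at 40.3 to 43 FPKM against 37.5 to 39.6 FPKM. Cdc34 ends 0.6 kb before Gzmm and was at 60.6 to 100.03 FPKM over all libraries, against at most 0.489 FPKM for Gzmm.

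The 5 genes whose centred log2(FPKM + 1) profile over the 6 libraries lay nearest to that of Gzmb were Ccl22, Lyz2, Gm42031, Il1b and Traj27. That profile holds the contrast that chose the family, so nearness to it is a description only. The root mean square distance was 0.167 for Ccl22, a chemokine gene, and 0.215 for Lyz2, the myeloid lysozyme gene, against a median of 1.12 over all tested genes. The KO libraries held Lyz2 at 8.31, 9.44 and 4.24 FPKM, against 1.38, 1.03 and 0.782 FPKM in WT. KO replicate 3, the KO library nearest to WT across genes, was the lowest of the KO libraries as for Gzmb. Gm42031, Il1b (interleukin 1 beta) and Traj27 (a T cell receptor alpha joining segment) followed at 0.330, 0.429 and 0.453, and Gzmc at 0.485 came next. Ccl22, Gm42031 and Il1b passed the filter through the KO libraries alone, as did Gzmc. In WT they were at 0.709 to 0.798, 0.0305 to 0.0687 and 0.364 to 0.720 FPKM.

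The remaining genes of the cytotoxic granule pathway were taken from a list of 54, of which 53 were in the table and 44 were tested. Of these 0 rose and 0 fell by limma, and 6 had an unadjusted p under 0.05, which 5.61 percent of all tested genes had. Every KO library was above every WT library for 6 of 44 and below for 1, where 4.28 percent of all tested genes were above and 6.88 percent below. The median difference on the log2(FPKM + 1) scale was -0.02 for the list and -0.03 for all tested genes. Without KO replicate 3, 5 of 43 rose and 4 fell, against 10.1 percent called of all genes in that fit, 4 percent higher and 6.14 percent lower. At an unadjusted p under 0.05 that fit held 17 of the 43 and 32.5 percent of all genes.

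Granule packaging and maturation genes were mostly level. Nkg7, a granule membrane protein, was at 2.02, 2.87 and 2.22 FPKM in KO against 0.603, 0.765 and 0.944 FPKM in WT, a log2 difference of 0.93 (SE 0.133, limma adjusted p = 0.0829). Its groups did not overlap, but it entered the test through the KO libraries alone, like Gzmc. Srgn, which encodes serglycin, was at 159 to 175 FPKM in KO against 162 to 176 FPKM in WT. Ctsc, the protease that activates granzymes, was at 22.3 to 27.2 and 25.4 to 26.6 FPKM. The lysosomal membrane gene Lamp1 and the chaperone gene Calr also overlapped between groups.

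Of 8 tested genes for granule transport and release 0 passed. Rab27a, which docks granules, was at 16.3 to 18.3 FPKM in KO against 15.5 to 17.5 FPKM in WT, and Unc13d, which primes them, at 19.5 to 20.95 and 18.9 to 20.2 FPKM. Stx11, a fusion protein of granules, was at 48.7, 47.7 and 35.6 FPKM in KO against 39.2 to 40.0 FPKM in WT. It did not pass with all libraries (limma adjusted p = 0.871), and without KO replicate 3 it rose by 0.28 (limma adjusted p = 0.0199, the lowest of its alternatives, the highest being 0.9999). Vamp8 and Snap23, also of the fusion machinery, overlapped between groups.

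Among granzyme inhibitors, Serpinb9, the inhibitor of granzyme B, was at 6.12, 5.26 and 3.74 FPKM in KO against 3.33, 3.23 and 3.51 FPKM in WT. All KO libraries were above all WT libraries, KO replicate 3 by little, and the log2 difference of 0.45 (SE 0.148) did not pass (limma adjusted p = 0.843). Serpinb6b, a serpin of the same clade, was at 14.8, 10.5 and 11.0 FPKM in KO against 7.68, 8.17 and 8.08 FPKM in WT, with a difference of 0.53 (SE 0.124, limma adjusted p = 0.545). Without KO replicate 3 both rose, with limma adjusted p of 0.0136 and 0.0345, and over their alternatives it reached 0.9999 and 0.9993. Serpinb6a overlapped, at 8.21 to 9.96 FPKM in KO against 9.08 to 9.49 FPKM in WT. The ordering of KO libraries for Serpinb9, replicate 3 lowest, was that of Gzmb. Across tested genes KO replicate 3 correlated more closely with each WT library than with the other KO libraries, so this place is not particular to them.

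Among granzyme B substrates, Bid, a pro-death BCL2 family member, was lower in every KO library, at 5.08, 4.98 and 5.43 FPKM against 5.6, 5.58 and 6.001 FPKM (log2 difference -0.13, limma adjusted p = 0.846). Dffa, the inhibitor of a nuclease that cuts DNA in dying cells, overlapped between groups.

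Among other death ligands and cytokines, Lta and Tnf overlapped between groups and did not pass. Fasl, the ligand of the Fas death receptor, was under the filter at 1.09, 0.690 and 1.02 FPKM in KO against 0.305, 0.256 and 0.540 FPKM in WT. Ifng, which encodes interferon gamma, was also under it, at 0.893, 1.08 and 0.547 FPKM in KO against 0.153, 0.166 and 0.102 FPKM in WT. For both, all KO libraries lay above all WT libraries, and they were the only 2 of the 5 genes of this role to do so. Of all genes in the table, 3.79 percent did.

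Of 12 tested transcription factors of the cytotoxic programme 0 passed with all libraries. Tbx21, which encodes T-bet, was at 4.38, 2.83 and 2.11 FPKM in KO against 1.62, 1.48 and 1.598 FPKM in WT, without overlap (log2 difference 0.64, SE 0.188, limma adjusted p = 0.806). Without KO replicate 3 it rose by 0.82 (limma adjusted p = 0.0230). Bhlhe40 and Hopx also had all KO libraries above all WT libraries, at 173 to 198 against 153 to 157 FPKM and at 3.37 to 3.51 against 2.25 to 3.16 FPKM. Eomes, the second T-box factor of cytotoxic cells, was at 0.102 to 0.180 FPKM in KO against 0.0114 to 0.112 FPKM in WT. Runx3 was at 15.8 to 19.7 FPKM in KO against 17.2 to 19.9 FPKM in WT, and Runx1 was equally close between groups. Irf4 was at 107, 110.1 and 199.9 FPKM in KO against 167 to 175 FPKM in WT. Of the 12, 2 rose (Tbx21 and Batf) and 2 fell (Irf4 and Stat5b) without KO replicate 3. That fit called 4 percent of all genes as higher and 6.14 percent as lower. Over the alternatives the limma adjusted p of Tbx21 and Irf4 reached 0.9999.

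Of 7 tested cytokine receptors 0 passed. Il2rb, the shared beta chain of the interleukin 2 and 15 receptors, was at 143 to 187 FPKM in KO against 170.3 to 173 FPKM in WT. Il2ra, the alpha chain of the interleukin 2 receptor, was at 201, 226 and 325 FPKM in KO against 287 to 299 FPKM in WT. Il12rb2, the signalling chain of the interleukin 12 receptor, was at 2.94, 4.69 and 18.3 FPKM in KO against 9.84 to 11.6 FPKM in WT. KO replicate 3 was above WT for both and the other KO libraries below it, and without KO replicate 3 both fell, by 0.45 and 1.30 (limma adjusted p = 0.0123 and 0.00879, each the lowest of its alternatives, the highest being 0.9999). Il27ra overlapped between groups.

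**Figure D4:**
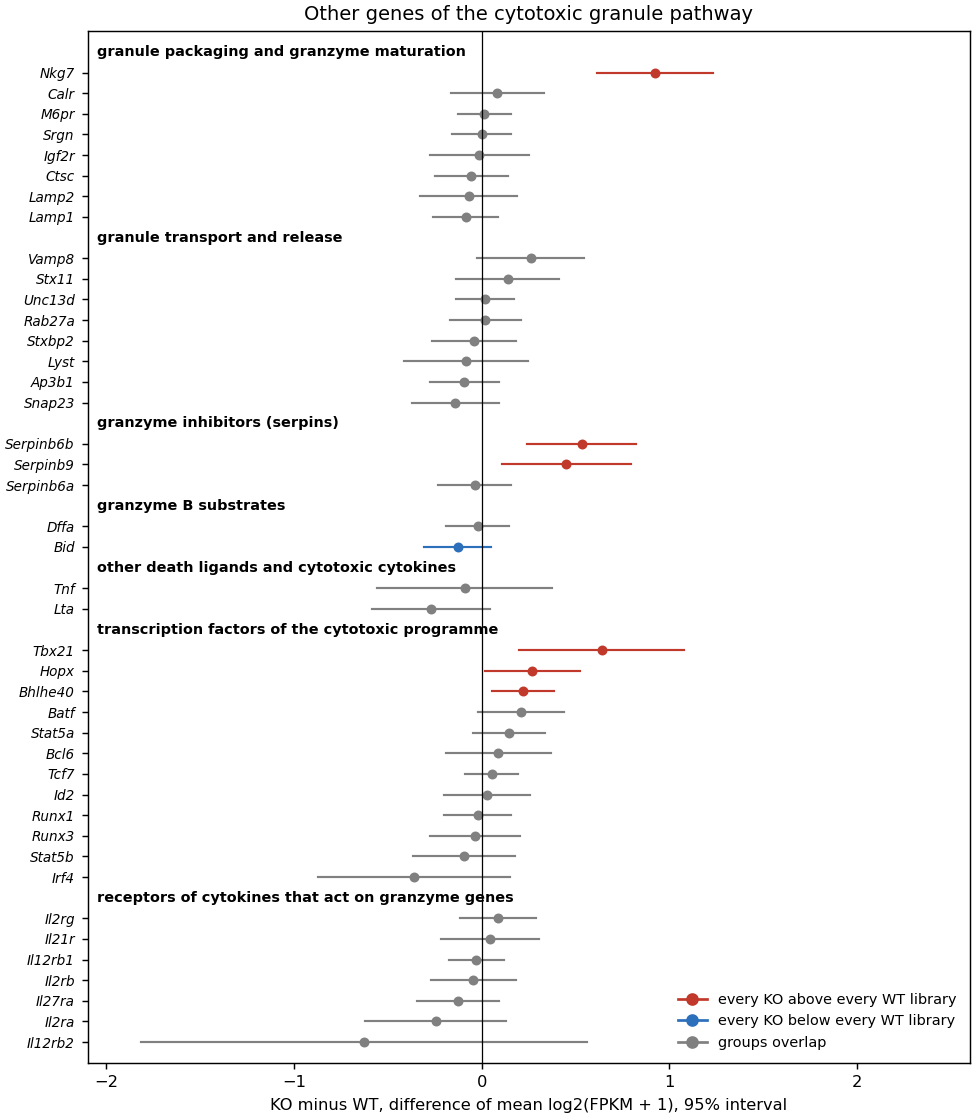
KO minus WT difference of mean log2(FPKM + 1) with its 95% interval from limma (x axis) for tested genes of the pathway list, by role. Nkg7, Serpinb6b, Serpinb9, Tbx21, Hopx and Bhlhe40 have every KO library above every WT library, Bid has the reverse, and 0 of the genes drawn pass at adjusted p under 0.05.

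Markers of the cells that usually make granzymes were measured beside these values. Of 11 NK cell markers with values 6 had every KO library above every WT library (Klra1, Klra3, Klra7, Klrc1, Klrc2 and Klrk1) and 0 below. Of all genes in the table, 3.79 percent were above in this way and 5.26 percent below. Only Klrc1 of the 6 passed the filter, and it was not called (limma adjusted p = 0.843). Of the 11 NK markers 3 reached 1 FPKM in any library. The other NK markers overlapped, with a lower mean in KO for Itga2 (0.203 against 0.278 FPKM) and Klre1 (0.125 against 0.140 FPKM). The NK list summed to 4.40, 5.13 and 8.34 FPKM in the KO libraries, against 3.12 to 3.34 FPKM in WT. KO replicate 3, the highest for the NK sum, was the lowest KO library for Gzmb and Gzmc and the highest for Gzma. Single NK markers differed in this order. Among KO libraries, Klra3, Klra7, Klrc1, Klrd1, Klrk1 and Itga2 were highest in KO replicate 3. Klra1 was highest in KO replicate 1, and Klra4, Klrc2, Klre1 and Tyrobp in KO replicate 2. Klra3 and Klra4 were listed at 0 in 3 of 3 WT libraries, and 0 markers of the list were at 0 in all KO libraries. Klra4 was above 0 in KO replicate 2 alone, at 0.0348 FPKM. Ncr1, Klrb1c, Klra8 and Klra9 were not analysed here. Cd8a was at 0.436, 0.409 and 0.225 FPKM in KO against 0.0856 to 0.120 FPKM in WT, while Cd8b1 overlapped at 3.18 to 5.92 and 3.75 to 4.89 FPKM. The part of NK or CD8 T cells in the granzyme values was not tested.

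Other cell types were measured in the same way, beside the same shares of all genes, 3.79 percent above and 5.26 percent below. Of 10 myeloid markers 5 had every KO library above every WT library and 0 below, and the list summed to 12.01, 12.6 and 8.31 FPKM in KO against 2.55 to 3.25 FPKM in WT, with KO replicate 3 lowest in KO as for Gzmb. Lyz2 sets that order, since Cd14, Csf1r and Cd68 were highest in KO replicate 3. S100a8 and S100a9 were listed at 0 in 3 of 3 WT libraries and also in KO replicate 2. S100a9 was above 0 in KO replicate 1 alone, at 0.461 FPKM. Of 7 B cell markers 3 were above and 0 below, summing to 22.7 to 27.6 FPKM in KO against 19.1 to 19.7 FPKM in WT, mostly from Ighm. Ms4a1 and Cd22 were listed at 0 in the WT libraries and also in KO replicate 2. Of the 10 myeloid markers 3, and of the 7 B cell markers 2, reached 1 FPKM in any library. Of 5 mast cell and basophil markers 1, Mcpt8, was above, and the list summed to 0.266 to 0.654 FPKM in KO against 0.272 to 0.375 FPKM in WT. Cpa3 and Mcpt8 were listed at 0 in WT, and Cpa3 was above 0 in KO replicate 2 alone, at 0.0567 FPKM. Of 4 plasmacytoid dendritic cell markers 0 were apart in either direction, with sums of 10.9 to 14.5 and 12.2 to 12.8 FPKM that came almost wholly from Irf8. The part of these cells in the granzyme values was not tested either.

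**Figure D5:**
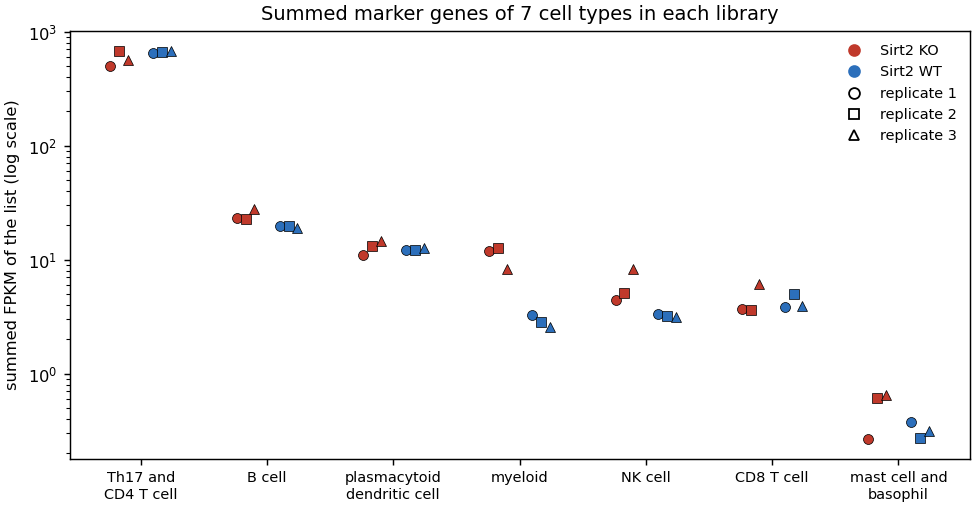
Summed FPKM of each marker list (y axis, log scale) per library, for lists of 7 cell types. The myeloid, NK cell and B cell sums are higher in each KO than in each WT library, and the other sums overlap.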

How the data were processed

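RNA of 6 mouse Th17 libraries, 3 Sirt2 KO and 3 Sirt2 WT by their titles, was measured by sequencing. The authors deposited FPKM per gene (24182) and per transcript (73900), a ratio column (fold) of mean FPKM of KO over WT, its log2, and a p-value and q-value per feature, per the file headers. HISAT2 and StringTie, cutadapt and FastQC, edgeR and DESeq2, and the build mm9 are listed, without roles or versions, per the submitters' processing notes. Of 73430 transcript IDs found in GENCODE M21, 73203 had the same coordinates in GRCm38, which is used here. The deposited fold equalled the ratio of means within 0.1 percent for 24087 genes. Whole reads could not be recovered: at most 11.4 percent of low values of single-exon transcripts lay within 0.02 of a multiple of a common step. Depth is therefore unknown, and no interval for counting error is given.

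Genes and transcripts at 1 FPKM or more in at least 3 libraries were compared by limma (version 3.58.1, R version 4.3.3) after a log2(FPKM + 1) transform. The fit used a mean trend and Benjamini-Hochberg adjustment over all features, called at adjusted p under 0.05. The fits were tested on simulated data. Members under the filter are given as values. Coding sequences were aligned globally with Biopython 1.88, and promoter windows are from RefSeq, matched by symbol for 7 of 7 members. The motif share is over all windows. Figures were drawn with matplotlib 3.10.9.

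The members, gene lists and naming rule were chosen with earlier results of these data known. The rule named all members, member transcripts of at least 0.05 FPKM on average, called pathway genes and up to 3 of smallest p per role, the nearest expressed neighbours, and the 5 genes nearest to Gzmb. Other pathway genes and markers named, among them Srgn, Ctsc, Rab27a, Unc13d, Dffa, Fasl, Ifng, Eomes, Runx1, Runx3, Irf4, Batf, Stat5b and Il2rb, were picked for their role or after their values were seen, as was the 2-exon perforin transcript. Some genes of the pathway list stay in its counts but are not reported here. Deviations of same-numbered KO and WT libraries from their group means correlated at 0.00668, -0.0170 and -0.0756 across genes. Those of differently numbered libraries correlated at -0.107 to 0.120. With 3 libraries per group these values cannot tell whether the numbers pair the libraries, and the labels do not say. The alternatives were other scalings, filters, pseudocounts and thresholds, no trend, a replicate block and leaving out each library. Fits that leave out a KO library and the filter together were added after the data were seen.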

Additional observations from a re-analysis of the deposited data

How the results depend on the processing

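The number of genes called in all was 12, with 13 under median scaling, 9 with libraries scaled to one sum, 8 without the filter, 5 with a filter at 5 FPKM and 7 at adjusted p under 0.01. Leaving out 1 library gave 0 (without KO replicate 1, with 346 at an unadjusted p under 0.05 by limma) to 1088 (without KO replicate 3). Members called numbered 2, and 1 with libraries scaled to one sum, at a filter of 5 FPKM, at a pseudocount of 0.1 and at adjusted p under 0.01. Without the filter 0 members were called by limma, with 3 at an unadjusted p under 0.05, and leaving out 1 library gave 0 to 1. With the filter dropped and 1 KO library left out, 0 to 1 members and 0 to 15 genes in all were called. Pathway genes called numbered 0 in the other alternatives, 0 to 9 on leaving out 1 library, and 1, Irf4, without both the filter and KO replicate 3. Transcripts called in all numbered 8, with 4 without the filter, 25 without the mean trend, 4 at adjusted p under 0.01 and 1 to 6 on leaving out 1 library. Member transcripts called numbered 0, with 1 (Gzmb) without the mean trend and 0 to 1 on leaving out 1 library. Fewer genes tested or fewer samples came with several of these losses. The cause was not tested otherwise.

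With the replicate number as a block, 13 genes, 2 members, 0 pathway genes and 0 member transcripts were called, while transcripts called in all fell from 8 to 3. Whether libraries of the same number share more than that number is not known.

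The number of members with a higher mean in KO was 6 of 7, and 4 to 6 on leaving out 1 library. Of 80 alternative values of single members, 60 moved by less than the spread between replicates, 20 by more and 0 called members changed sign. The replicate block cannot move these differences, and the deposited log2 fold repeats the log2 ratio of mean FPKM. The 80 values are therefore not separate checks, and the called members, whose groups did not overlap, could not change sign on leaving out a library. Motif matches in member windows numbered 20, of which 10 lay in the last 100 bases. For 5 of the 7 members every library was under 1 FPKM, and without counts their precision is unknown.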
